A study of Macaca mulatta with 17 samples.

Results

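The genes described here are interferon-stimulated genes in the uterus of female rhesus macaque fetuses. Members were taken from a list of 39 genes and matched to the array by the gene symbol, or an older name, in the description of each probe. Of the 39, 36 had a probe among the 20217 probes of the array, and IFITM2, IFI27 and IFI44L (3 genes) had none that matched. Each uterus came from a different fetus and was hybridized to its own single-color Agilent array, 17 in all. GD100 controls (n = 5) were fetuses of dams given vehicle from gestational day 50 and delivered by caesarean section on day 100. GD100 BPA-exposed fetuses (n = 5) differed in that the dams were fed 400 µg bisphenol A (BPA) per kg per day in fruit over the same period. GD165 controls (n = 4) and GD165 BPA-exposed animals (n = 3) had the same agents from day 100 and were delivered vaginally at 165 to 168 days. The vehicle was ethanol, the BPA was deuterated and the animals carry no genetic modification. Newborns were euthanized within a day of birth, so that age cannot be told apart from the way of delivery and the hours after it, and stillborn fetuses were not put on arrays.

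Interferons are secreted when cells sense viral nucleic acid or other danger, and they bind receptors at the surface of neighboring cells. Receptor-bound Janus kinases then phosphorylate STAT proteins. STAT2 and IRF9 belong to the complex that switches on interferon-stimulated genes, whose products block the entry, translation, replication and release of viruses. Several of these genes, IRF1 and IRF7 among them, are also expressed at a base level without infection, and the reproductive tract is known for an epithelial interferon, IFNE, that is made without a viral trigger.

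The probes are 60 bases long, and the last 30 bases of a few are shown as a description of what was measured. The first 8 belong to the members that passed the threshold between the ages in both control and BPA-exposed animals, the next pair to the related GTPases MX2 and MX1, of which 1 passed and the other did not, and the last 3 to genes with several probes. Capitals mark AATAAA, the canonical polyadenylation hexamer, which lies near the end of many transcripts.
ISG20: tagtaaagtggctctatattttctctacgc
TRIM22: caatctcttttcttcctcatttactctgcc
SAMD9: cagaggaaggccacacattatgggtctgta
IRF1: ggaatgtcatctaaccattaagtcatgtgt
IRF7: gctggagcagcccgtctagagcccagtcta
IFIH1: gacataagaatcAATAAAatgattgtttta
IFIT3: ttttgcatgttgctttaaagtacattttta
IFITM1: ccccacacacctgtccacaatgacattcaa
MX2: aagaggaatttAATAAAgcaaagagacttt
MX1: ctgtctcctccgtttgtAATAAActtattt
IFITM3, both probes: ctgcccataacctgtatcccacgtgctcca
OAS1, brighter probe: gacatgcaccatcctctgaatgccagtgca
OAS1, dimmer probe: atcccttgtccagagttcattcccctaaaa

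The hexamer was searched on the printed strand only. It lay in 9 of the 36 member probes (25.0%) and in 2580 of all 20217 probes (12.8%). The description named a human transcript for 31 of the 36 probes and a macaque sequence for 5. The array's annotation thus pairs macaque RNA with names that are mostly of human genes. Within families the probes shared no long stretch. The longest run of bases common to the IFITM1 and IFITM3 probes was 6, to MX1 and MX2 7, to GBP1 and GBP2 5, and among the IFIT probes it was at most 7.

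Levels are log2 signals on a scale where the 75th percentile of every array is 12.62, and levels of different probes are not compared. On every one of the 17 arrays 32 of the 36 members were well above background by the scanner's own call. The probe of DDX58 (the RNA sensor RIG-I) reached background-level signal only, with 0 arrays of any group well above it. The GBP2 probe was well above background on 1 of 5 GD100 controls, 0 of 5 GD100 BPA-exposed, 1 of 4 GD165 control and 3 of 3 GD165 BPA-exposed arrays. OASL missed on 1 GD100 control and 3 GD100 BPA-exposed arrays and SAMD9 on 2 GD100 controls. The heatmap of all members shows their levels over the arrays by role.

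**Figure D1:**
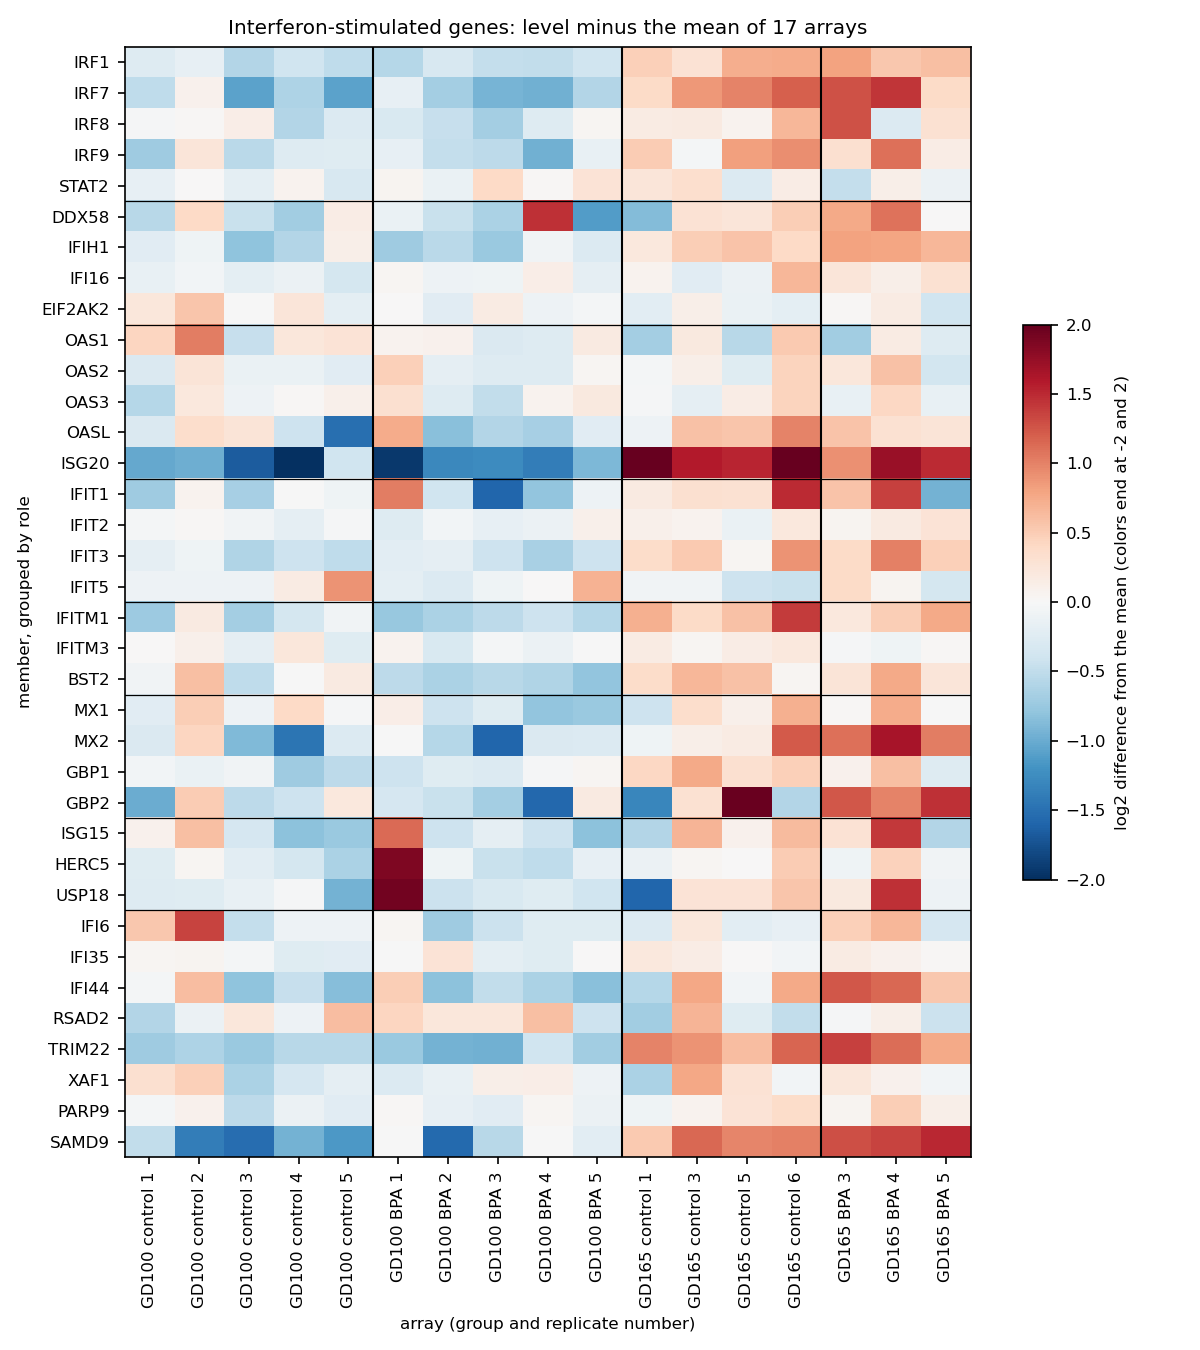
Level of each of the 36 members (rows, grouped by role between black lines) on each of the 17 arrays (columns, grouped by age and treatment), as the log2 difference from the member's mean over all arrays. ISG20, TRIM22, SAMD9, IRF1 and IRF7 were low on the GD100 arrays and high on the GD165 arrays, while USP18 and HERC5 were highest on GD100 BPA replicate 1.

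The comparison of GD165 with GD100 controls asked which genes change in the uterus over the last part of gestation. Of the 36 members 9 (25.0%) were higher at GD165 and 0 were lower, at an adjusted p under 0.01 in limma. Over all 20217 probes 11.5% passed in either direction and 6.32% were higher. ISG20, an exonuclease that degrades RNA, rose most, 10.9-fold, followed by SAMD9, a cytoplasmic restriction factor, TRIM22, a tripartite motif protein that restricts viruses, and IRF7, the factor that drives type I interferon genes. The median log2 fold change was 0.35 over the members and 0.0046 over all probes, and 31 of the 36 members had a positive fold change against 50.5% of all probes. At GD165 10 members lay above GD100 with no overlap and 0 lay below, and 9.51% of all probes lay above in this way.

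ISG20 measured 7.44, 7.49, 6.81, 6.32 and 8.07 in the GD100 controls and 11.42, 10.05, 10.00 and 11.24 in the GD165 controls. The lowest GD165 animal was far above the highest GD100 animal. Its log2 fold change was 3.45 (SE 0.37, adjusted p 2.31e-05).

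SAMD9 measured 5.13, 4.24, 4.10, 4.68 and 4.47 in the GD100 controls and 6.15, 6.77, 6.60 and 6.63 in the GD165 controls, again without overlap. The log2 fold change was 2.01 (SE 0.28, adjusted p 0.000178). The probe is dim, and with normexp background correction, which compresses low signals, the log2 fold change was 0.78 and stayed past the threshold.

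TRIM22 kept each age within a narrow range. It measured 8.62, 8.71, 8.58, 8.78 and 8.77 in the GD100 controls and 10.32, 10.23, 9.95 and 10.49 in the GD165 controls, a log2 fold change of 1.55 (SE 0.14, adjusted p 8.84e-06), the smallest adjusted p among the members.

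The interferon regulatory factors came next. IRF7 measured 10.39, 10.98, 9.81, 10.27 and 9.81 in the GD100 controls and 11.27, 11.76, 11.89 and 12.09 in the GD165 controls, 2.82-fold higher (log2 SE 0.27, adjusted p 0.00116). IRF1, an early factor induced by type II interferon, measured 11.58, 11.67, 11.26, 11.44 and 11.33 at GD100 and 12.32, 12.13, 12.57 and 12.59 at GD165, a log2 fold change of 0.94 (SE 0.11, adjusted p 4.89e-05). In both the groups were separate. IRF9, the DNA-binding partner of STAT2, overlapped between the groups and had a log2 fold change of 0.85 (SE 0.25, adjusted p 0.0247). IRF8, a factor of myeloid and B cells, and STAT2 had log2 fold changes of 0.42 and 0.23 and did not pass.

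IFITM1, a transmembrane protein that hinders viral entry, measured 14.47, 15.36, 14.51, 14.83 and 15.12 in the GD100 controls and 15.90, 15.56, 15.78 and 16.58 in the GD165 controls. The log2 fold change was 1.10 (SE 0.21, adjusted p 0.00183). Its relative IFITM3 was bright and even, between 15.33 and 15.80 in the GD100 controls and between 15.61 and 15.78 in the GD165 controls, with a log2 fold change of 0.16 (adjusted p 0.297). The other IFITM3 probe carries the same 60 bases, differed from it by at most 0.10 on any array, and gave 0.17.

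IFIT3, a tetratricopeptide protein that partners IFIT1 in binding viral RNA, measured 12.13, 12.23, 11.71, 11.90 and 11.80 at GD100 and 12.68, 12.83, 12.36 and 13.22 at GD165 in controls. It rose by a log2 fold change of 0.82 (SE 0.18, adjusted p 0.00395). IFIT1, IFIT2 and IFIT5 did not pass. IFIT1 had a log2 fold change of 0.85 with an SE of 0.50, its groups not overlapping.

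GBP1, a large GTPase, measured 10.52, 10.44, 10.51, 9.86 and 10.06 in the GD100 controls and 10.99, 11.33, 10.90 and 11.05 in the GD165 controls, a log2 fold change of 0.79 (SE 0.18, adjusted p 0.00527). IFIH1, the RNA sensor MDA5, measured 9.20, 9.35, 8.63, 8.84 and 9.55 at GD100 and 9.65, 9.93, 10.00 and 9.83 at GD165. Its log2 fold change was 0.74 (SE 0.18, adjusted p 0.00802), the largest adjusted p of the 9. IFIH1 fell short of the threshold in 17 of 31 alternative settings, GBP1 in 9 and IFIT3 in 8, and ISG20, SAMD9, TRIM22 and IRF1 in 0.

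ISG15 and the enzymes that attach and remove it did not pass. ISG15, a ubiquitin-like protein that is coupled to other proteins, measured 12.75, 13.26, 12.33, 11.84 and 11.92 in the GD100 controls and 12.08, 13.34, 12.75 and 13.29 in the GD165 controls. The groups overlapped through most of their range, with a log2 fold change of 0.45 (SE 0.45, adjusted p 0.544). HERC5, the ligase that attaches ISG15, and USP18, the protease that removes it, had 0.39 and 0.20. MX1, a dynamin-like GTPase that traps viral nucleoproteins, had a log2 fold change of 0.08 with a 95% interval from -0.45 to 0.61, and IFI6, a small membrane protein, had -0.35 with an interval from -1.01 to 0.31.

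The oligoadenylate synthetases OAS1, OAS2 and OAS3, whose product activates RNase L, had log2 fold changes of -0.43, 0.17 and 0.17, none past the threshold. The OAS1 value is of its brighter probe. The dimmer OAS1 probe, designed to another transcript variant, was well above background on 6 of 17 arrays, tracked the brighter probe weakly (r = 0.18 over the 17 arrays) and had 0.11. For OAS2 the r between both probes was 0.83. Among the remaining members, IFI44 had a log2 fold change of 0.53, XAF1, which promotes cell death, 0.16, PARP9, a partner of a ubiquitin ligase, 0.32, IFI35 0.16, RSAD2 (viperin) -0.19, the kinase EIF2AK2 (PKR) -0.27 and the DNA sensor IFI16 0.27. MX2 and OASL had 0.85 and 0.83, and BST2 (tetherin, which holds budding virus at the cell surface) 0.37.

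Control arrays of both ages lay together on 2 of the 6 slides. On the one, GD165 control 3 exceeded GD100 control 3 in 34 of the 36 members, with a median log2 difference of 0.68. On the other, GD165 control 1 exceeded GD100 control 5 in 25 of the 36, with a median of 0.23. The medians over all probes were -0.05 and 0.0038. The 9 called members did not overlap between the control groups, so any such pair had to show them higher. Their differences were 0.82 to 3.24 and 0.10 to 3.36. With slide as a fixed block 5 of the 36 passed (13.9%), beside 6.10% of all probes. In a fit of the 2 control groups alone 5 passed as well, beside 5.80% of all probes, and 5 with the replicate number as a block, beside 4.74%.

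The BPA-exposed animals gave the other comparison of the ages, on other arrays but in the same limma fit, so that both share 1 estimate of the spread. Of the 36 members 10 (27.8%) were higher at GD165 and 0 were lower, against 9.68% of all probes in either direction and 4.82% higher. The median log2 fold change was 0.63 over the members and -0.05 over all probes. There were 14 members above without overlap between the groups, beside 11.7% of all probes. The forest plot of the age effects sets both comparisons side by side.

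**Figure D2:**
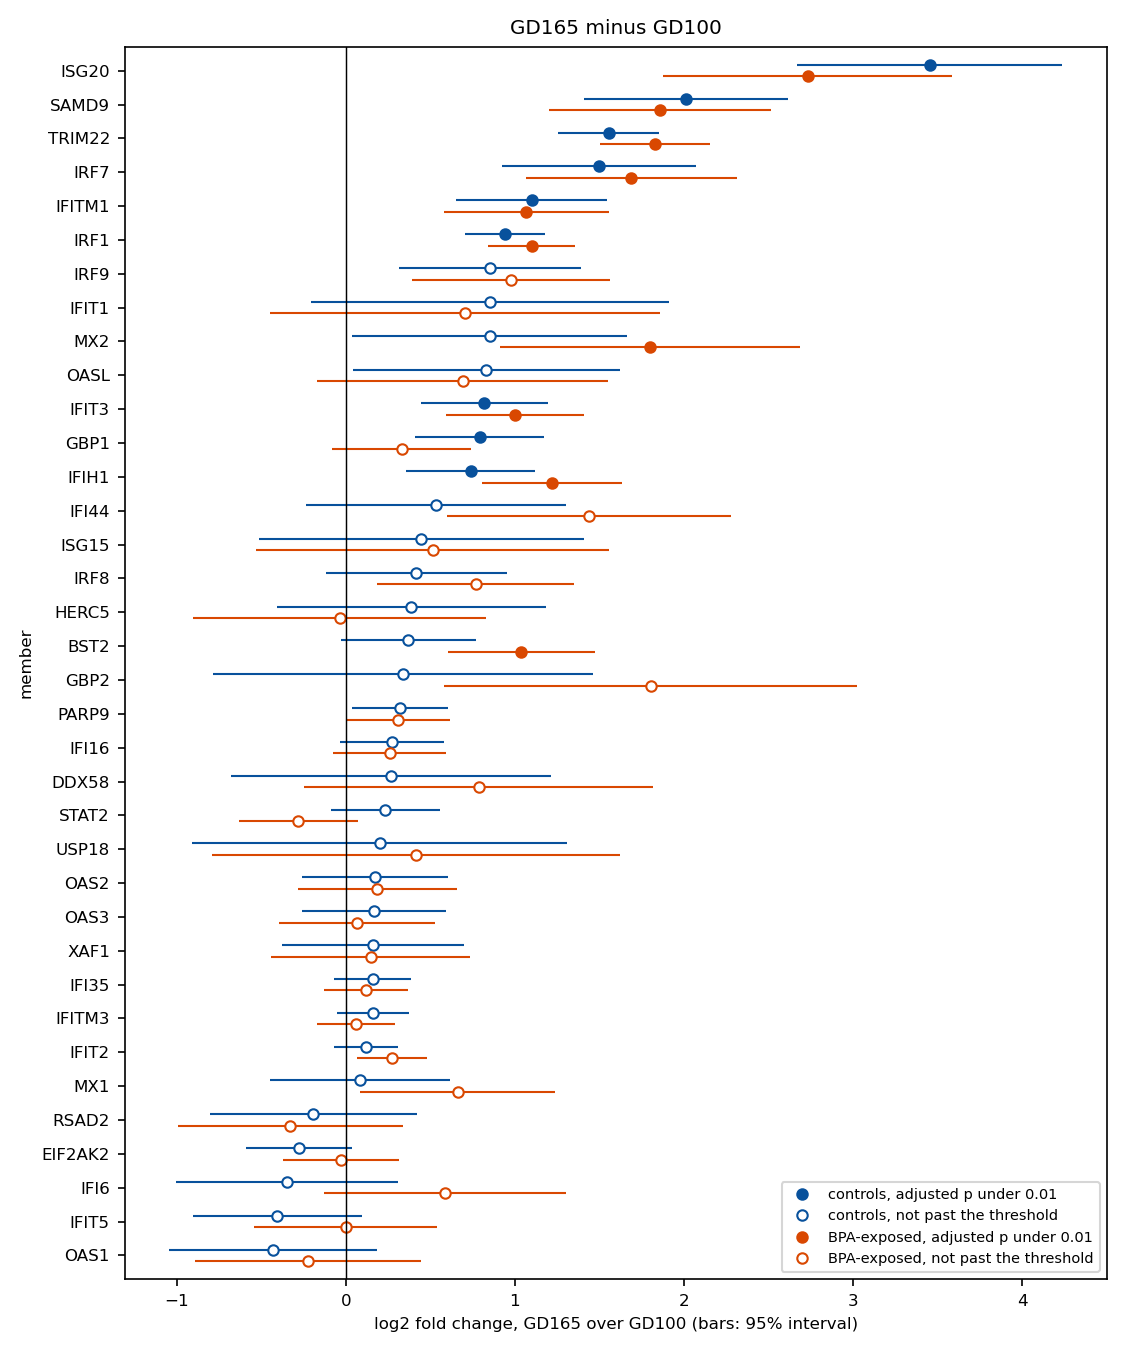
Log2 fold change of each of the 36 members between GD165 and GD100 (x axis) in controls (blue) and in BPA-exposed animals (orange), ordered by the value in controls, with 95% intervals from limma; filled circles passed an adjusted p of 0.01, and the values of GBP2 and DDX58 rest on signals mostly not above background. ISG20 lies at 3.45 and 2.73, and the filled circles are all to the right of 0.

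Both lists held ISG20, SAMD9, TRIM22, IRF7, IRF1, IFITM1, IFIT3 and IFIH1, which is 8 of the 9 called in controls (88.9%) and 8 of the 10 called in BPA-exposed animals (80.0%). The share of all called probes that passed in both treatments is not given here. These percentages are thus not read as particular to the members. With each comparison fitted on its own groups alone, 5 and 8 members passed, beside 5.80% and 5.82% of all probes. The 4 in both were ISG20, TRIM22, IRF7 and IRF1. ISG20 measured 6.54, 7.18, 7.21, 7.09 and 7.57 in the GD100 BPA-exposed animals and 9.38, 10.20 and 9.97 at GD165, a log2 fold change of 2.73 (SE 0.40, adjusted p 0.000385). TRIM22 measured 8.59, 8.39, 8.36, 8.93 and 8.64 at GD100 and 10.69, 10.45 and 10.08 at GD165, with 1.83 (SE 0.15, adjusted p 1.24e-05). In neither gene did the ages overlap.

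SAMD9 in BPA-exposed animals measured 5.61, 4.06, 5.07, 5.62 and 5.41 at GD100 and 6.92, 6.98 and 7.14 at GD165, a log2 fold change of 1.86 (SE 0.31, adjusted p 0.000875), or 0.77 with normexp. IRF7, IRF1 and IFIH1 had log2 fold changes of 1.69, 1.10 and 1.22, and IFITM1 and IFIT3 had 1.07 and 0.999. All 3 GD165 animals lay above all 5 GD100 animals in each of these genes.

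GBP1 was called in controls and not in BPA-exposed animals, where its log2 fold change was 0.33 (adjusted p 0.244). BST2 and MX2 were called in BPA-exposed animals and not in controls. BST2 measured 14.80, 14.70, 14.77, 14.72 and 14.53 at GD100 and 15.58, 16.08 and 15.57 at GD165, a log2 fold change of 1.04 (SE 0.20, adjusted p 0.00279). MX2, a GTPase at the nuclear pore that restricts retroviruses, measured 6.95, 6.39, 5.37, 6.66 and 6.68 at GD100 and 8.05, 8.59 and 7.98 at GD165. Its log2 fold change was 1.80 (SE 0.42, adjusted p 0.00717), or 1.21 with normexp, and it missed the threshold in 10 of 31 alternatives. For these genes the difference between the age effects was tested by the interaction term below, and none passed.

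GBP2 was above background on every GD165 BPA-exposed array and on 0 at GD100. It was at least 1.85-fold higher at GD165 against the lowest signals called above background, with measured means of 4.62 and 2.82 (adjusted p 0.0368), and with normexp its log2 fold change was 0.21. IFI44, a cytoplasmic protein of the same response, had a log2 fold change of 1.44 (adjusted p 0.0183), and IRF9 0.98 (adjusted p 0.0208). Without GD165 BPA replicate 4 the count of called members was 6 in place of 10, IFIT3, BST2, IFITM1 and MX2 missing the threshold, beside 4.92% of all probes. On the 1 slide with both ages of BPA-exposed animals, GD165 BPA 5 exceeded GD100 BPA 5 in 26 of the 36 members. The median log2 difference was 0.28 over the members and -0.0066 over all probes. The 10 called members did not overlap between the BPA-exposed groups, so they had to be higher here, by 0.89 to 2.40. With slide as a fixed block 3 of the 36 passed (8.33%), beside 2.53% of all probes.

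**Figure D3:**
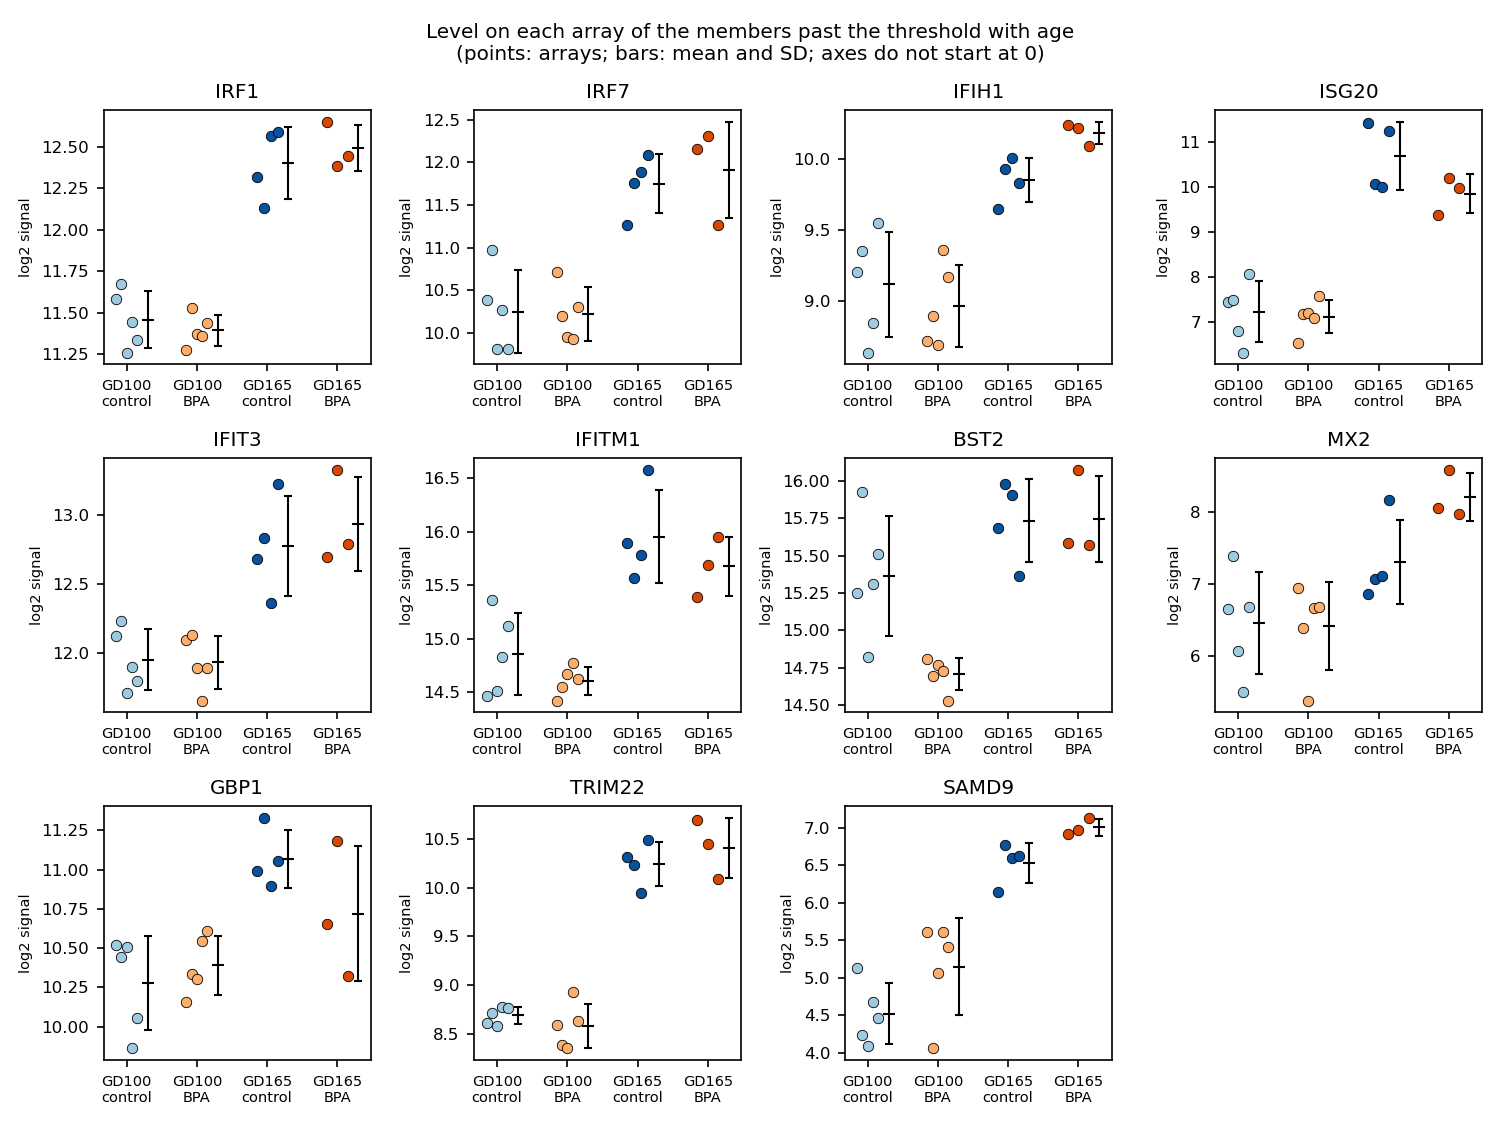
Log2 signal on each array (points) of the 11 members past the threshold with age in controls, BPA-exposed animals or both, by group, with mean and SD beside the points; the y axes do not start at 0. TRIM22, IRF1 and ISG20 separate the ages in both treatments, and BST2 lies lowest in the 5 GD100 BPA-exposed animals.

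By role, the called members are listed here as a description. Over all probes 6.32% were higher in controls and 4.82% in BPA-exposed animals. With 3 to 8 members in a role, 1 call or none does not set it apart from these shares. In controls 2 of the 5 transcription factors passed, 1 of the 4 sensors and kinases, 1 of the 5 oligoadenylate synthetases and nucleases, 1 of the 4 IFIT genes, 1 of the 3 IFITM and membrane genes, 1 of the 4 GTPases and 2 of the 8 other induced genes. The ISG15 system gave 0 of 3. In BPA-exposed animals the counts were the same except for the IFITM and membrane genes, at 2 of 3, and the GTPase that passed was MX2 in place of GBP1.

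Upstream of the members, 43 genes of the pathway were measured. In controls 4 were higher at GD165 (9.30%, beside 6.32% of all probes) and 0 lower, and in BPA-exposed animals 3 (6.98%, beside 4.82%) and 0. Of 15 interferon genes, 7 were not well above background on any array, IFNB1 among them, and 0 passed. IFNE, the interferon of reproductive epithelium, had a log2 fold change of 0.82 in controls (adjusted p 0.0463) and 0.17 in BPA-exposed animals. All 6 receptor genes were above background on every array. IL10RB, a chain shared by the receptors of IL-10 and type III interferons, rose by 0.68 on the log2 scale in controls (SE 0.14, adjusted p 0.00269) and by 1.03 in BPA-exposed animals (SE 0.15, adjusted p 0.000385).

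The type I receptor gene IFNAR1 had 0.84 in controls (adjusted p 0.0154) and 0.67 in BPA-exposed animals (adjusted p 0.0687), and IFNAR2 had 0.47 and 0.09. For the type II receptor, IFNGR1 had 0.29 and 0.30 and IFNGR2 -0.10 and -0.06, and IL28RA of the type III receptor had 0.10 and -0.34. Of 8 signal transducers 0 passed. Among sensors and adaptors TLR3, which detects double-stranded RNA and was well above background on 15 of 17 arrays, rose in both treatments, by 1.02 in controls and 1.17 in BPA-exposed animals (adjusted p 0.00199 and 0.00178), and TLR8 rose in controls by 1.38 (adjusted p 0.00589) and had 1.36 in BPA-exposed animals (adjusted p 0.0126), which did not pass. The phosphatase gene PTPN6, an inhibitor of cytokine signaling that blood cells express, rose by 0.75 and 0.59 (adjusted p 9.88e-05 and 0.00157).

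Some markers of other cells rose with age as well. Over all probes 6.32% were higher in controls and 4.82% in BPA-exposed animals. With so few markers for each cell type, 1 called marker does not set a cell type apart from these shares. Of 8 general leukocyte markers, 2 rose in controls and 1 in BPA-exposed animals, and their summed level was 15.10 to 15.29 in GD100 controls, 15.05 to 15.41 in GD100 BPA-exposed, 15.99 to 16.12 in GD165 control and 15.82 to 16.31 in GD165 BPA-exposed animals, so that the ages did not overlap. Macrophage markers rose in 2 and 3 of 12, with summed levels of 14.84 to 15.65 at GD100 and 15.57 to 16.45 at GD165, and CD163 was not above background on any array. T and NK cell markers rose in 3 and 2 of 15 and their sums overlapped between the ages, with CD3D and KLRD1 not above background. B cell and plasmacytoid dendritic cell markers gave 0 of 6 and 0 of 4, with PAX5 and CLEC4C not above background on any array. Endothelial markers passed in 1 of 8 in each treatment, with sums of 15.40 to 16.16 at GD100 and 16.22 to 17.10 at GD165. Sums weigh bright markers most. As a mean over centered endothelial markers the ages overlapped, with -0.09 on GD165 control replicate 3 and -0.03 on GD100 control replicate 2. Smooth muscle markers rose in 3 of 9 in controls and 1 of 9 in BPA-exposed animals, skeletal muscle in 4 and 1 of 8, erythroid in 1 and 1 of 7 and squamous epithelium in 0 of 9. Single arrays stood apart in these sums. The squamous sum was 16.82 on GD165 control replicate 6 and 13.49 to 14.95 on the other 16 arrays, and this animal also had the highest median over the members among the GD165 controls, 0.51. Without it 6 of the 9 members called in controls passed, IFIT3, GBP1 and IFIH1 missing, beside 7.48% of all probes. The count was also 6 without GD100 control replicate 4, beside 8.82% of all probes. The skeletal muscle sum was 16.45 on GD165 control replicate 5 and 15.59 on GD165 BPA replicate 5, and at most 13.97 on the others. Without the former 8 members passed in controls (beside 11.2% of all probes) and 11 in BPA-exposed animals (beside 10.1%). Without the latter 8 and 8 passed, beside 11.6% and 5.84% of all probes. The part of these cells in the members' changes was not tested, and in whole tissue more cells of a type and more RNA per cell cannot be told apart. Of 9 markers of the fetal uterus 8 were above background on every array, PGR being the exception.

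The comparison of BPA-exposed with control animals at GD100 asked whether exposure from day 50 changed expression at the earlier age. None of the 36 members passed (0), beside 0.0% of all probes, and at an unadjusted p under 0.05 in limma there were 3 of the 36, beside 767 of all probes (3.79%). The median log2 fold change of the members was -0.05, and 21 of the 36 values were negative. The plot of the BPA effects shows every member with its interval.

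**Figure D4:**
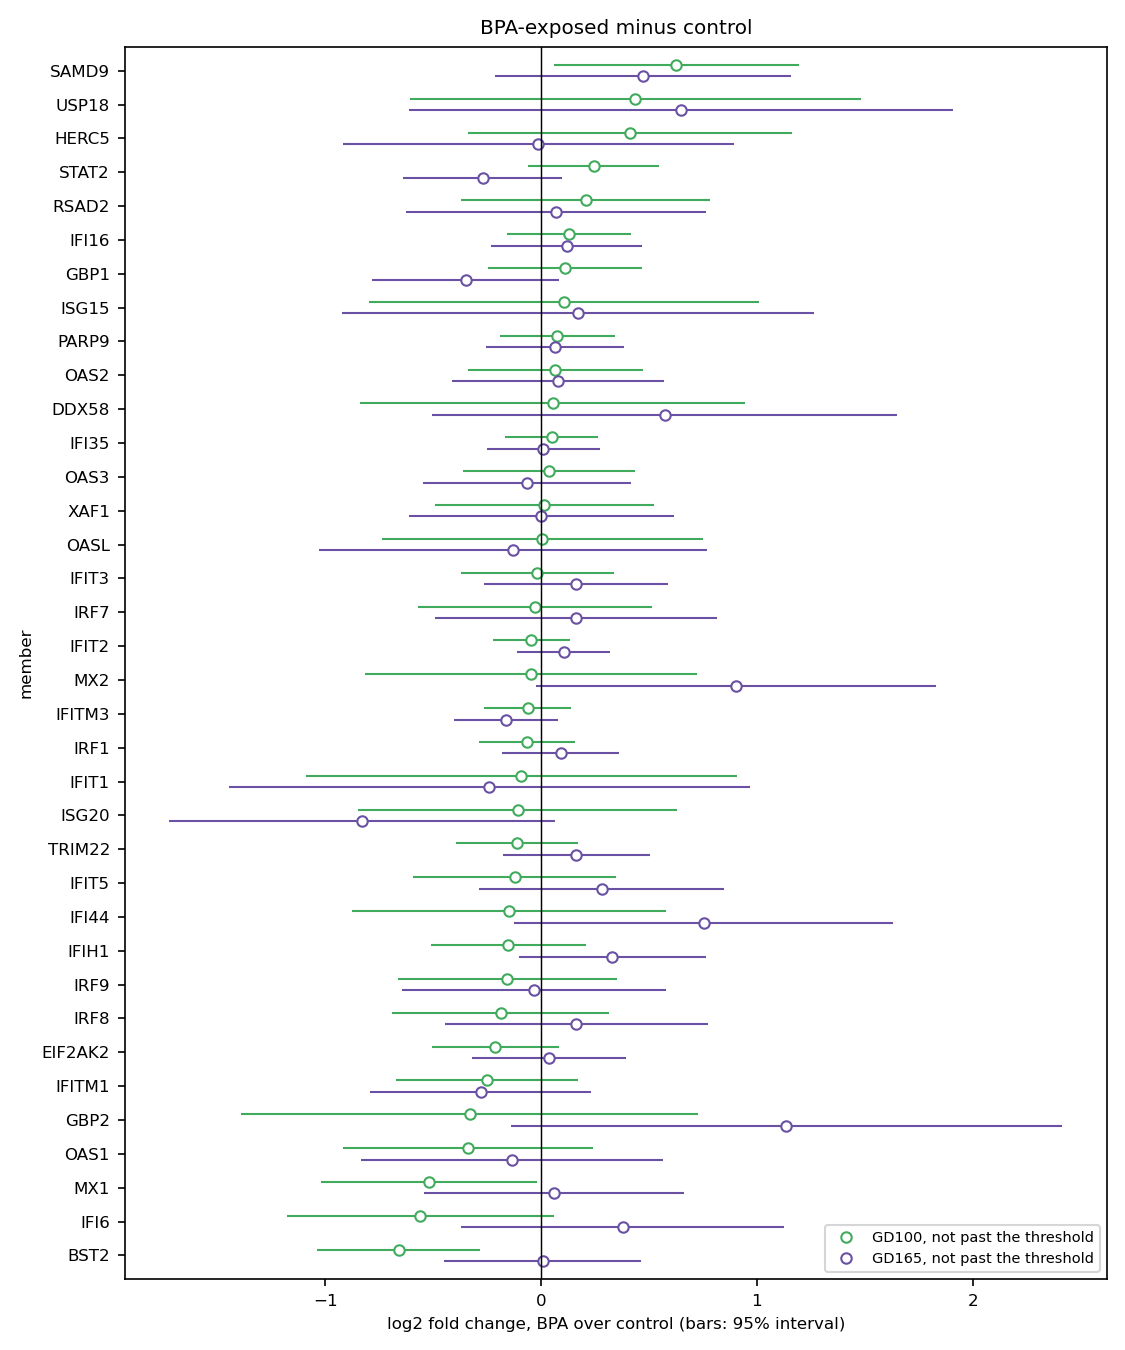
Log2 fold change of each of the 36 members between BPA-exposed and control animals (x axis) at GD100 (green) and at GD165 (purple), ordered by the value at GD100, with 95% intervals from limma; the values of GBP2 and DDX58 rest on signals mostly not above background. All circles are open because none of the members passed an adjusted p of 0.01, and BST2 at GD100 lies lowest at -0.66.

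BST2 had the smallest p of the members. It measured 15.25, 15.93, 14.82, 15.31 and 15.51 in the controls and 14.80, 14.70, 14.77, 14.72 and 14.53 in the BPA-exposed animals (1 member below without overlap, beside 0.401% of all probes). All 5 exposed animals lay below the lowest control. The log2 fold change was -0.66 with a 95% interval from -1.04 to -0.28 (unadjusted p 0.00204, adjusted p 0.9999, limma). Within slides the difference was -0.51, -1.40 and -0.02.

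SAMD9 had a log2 fold change of 0.63 with an interval from 0.06 to 1.19 (unadjusted p 0.0325 in limma) and MX1 -0.52 with an interval from -1.02 to -0.02 (unadjusted p 0.0432). In both the groups overlapped. Over the 32 members well above background on every array the intervals reached from -1.18 to 1.48, and 25 of the 32 lay wholly within a 2-fold change in either direction.

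At GD165, BPA from day 100 on was compared with control. None of the 36 passed (0), beside 0.0% of all probes, and 0 had an unadjusted p under 0.05 in limma, beside 8.61% of all probes. The smallest p belonged to MX2, which measured 6.86, 7.07, 7.12 and 8.17 in controls and 8.05, 8.59 and 7.98 in BPA-exposed animals. The highest control lay above 2 of the 3 exposed animals. Its log2 fold change was 0.90 with an interval from -0.02 to 1.83 (unadjusted p 0.0554, adjusted p 0.586, limma).

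ISG20 had -0.83 with an interval from -1.72 to 0.06. The dim GBP2 probe measured 2.08, 3.70, 5.36 and 2.80 in controls and 4.64, 4.38 and 4.85 in exposed animals, was well above background on 1 of 4 and 3 of 3 of these arrays, and is given no fold change. IFIH1 and SAMD9 lay above the controls on all 3 exposed arrays (2 of 36 members, beside 2.07% of all probes), with log2 fold changes of 0.33 and 0.47, and IFITM3 lay below (1 of 36, beside 5.24%), at -0.16. Over the same 32 members the intervals reached from -1.72 to 1.91, and 25 of the 32 lay wholly within a 2-fold change. Of the 36 values 25 were positive (69.4%), beside 44.7% of all probes, with a median of 0.07 over the members and -0.02 over all probes. On the 1 slide with both groups, the mean of 2 exposed arrays exceeded 1 control array, replicate 1, in 30 of the 36. This control had the lowest median over the members in its group, 0.02. Without it the members' median BPA effect was -4.4e-05. On leaving out other single arrays this median ran from -0.04 without BPA replicate 4 to 0.19 without BPA replicate 5. The members covary between animals, so these counts are not of independent values.

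The interaction asked whether the BPA effect differed between the ages, which is also the test of whether the age effect differed between treatments. It was past the threshold for 0 of the 36 members and 0.0% of all probes. Unadjusted p values were under 0.05 for 2 members, BST2 at 0.67 with an interval from 0.08 to 1.26 (unadjusted p 0.0295 in limma) and STAT2 at -0.51 with an interval from -0.99 to -0.04 (unadjusted p 0.0357), beside 7.83% of all probes. IFI6 came next with 0.94 and an interval from -0.03 to 1.91. For GBP1 and MX2, called in 1 treatment each, the interaction was not past the threshold either.

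The members also varied between animals of the same group. After group means were removed, the median Pearson's r over the 630 pairs of members was 0.20 on 17 arrays, and it was 0.006 over all pairs of probes. The arrays share their RNA, slide and scaling between probes, and r is given as a description. The highest r was between OAS2 and IFIT1, 0.89, then between ISG15 and IFI44, 0.86, OAS1 and IFIT3, 0.83, and IRF7 and IFI44, 0.82. The pair ISG15 and USP18 had 0.82 and HERC5 and USP18 0.81. GD100 BPA replicate 1 lay 1.28, 1.81 and 1.74 above its group means in ISG15, USP18 and HERC5. This 1 array thus weighs heavily in the r of these genes, and r without it is not given.

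**Figure D5:**
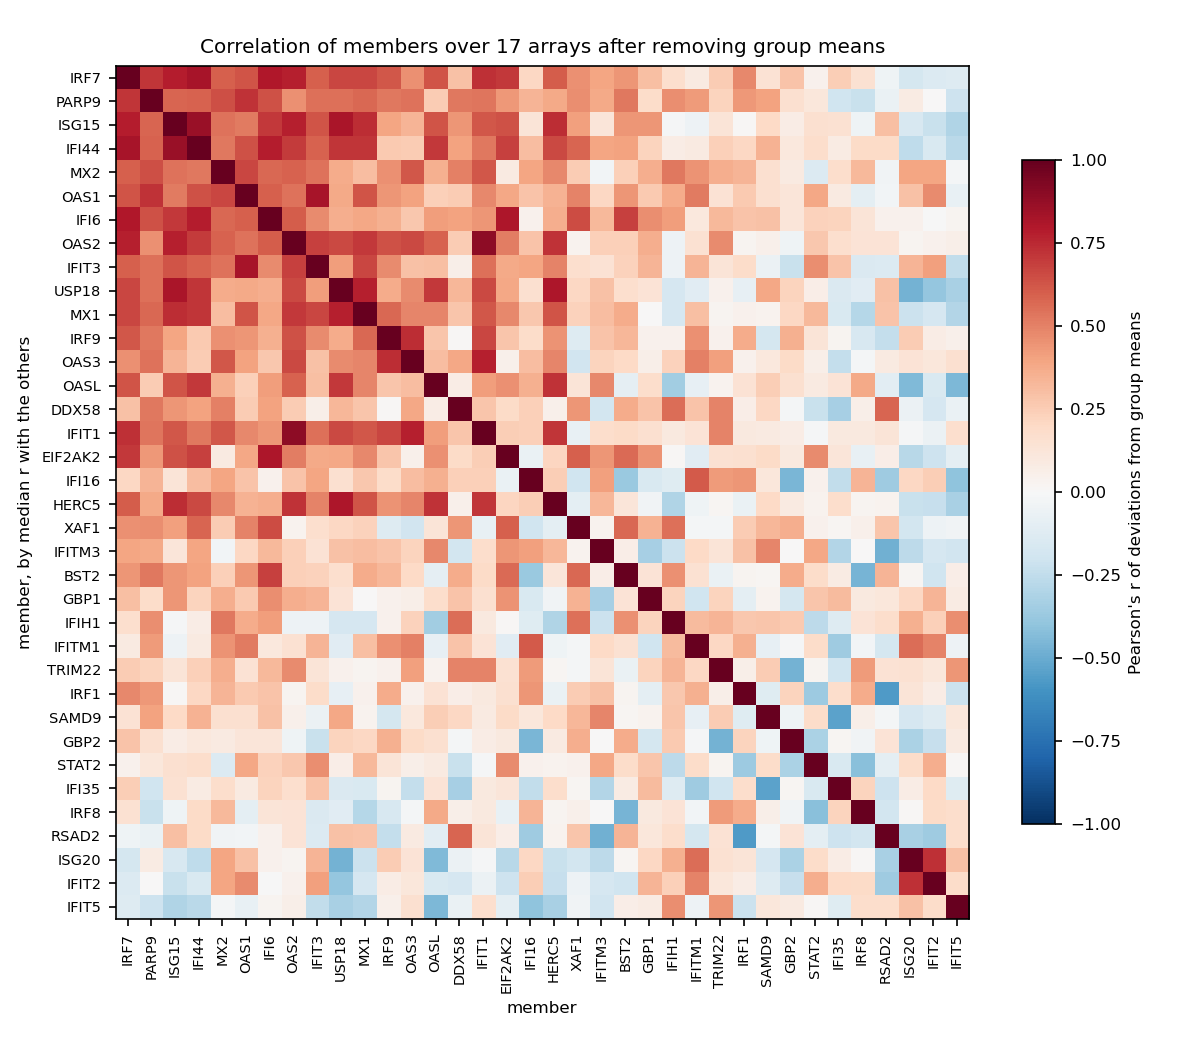
Pearson's r between the 36 members over the 17 arrays after removing each group's mean, with members ordered by their median r with the others. IRF7, PARP9, ISG15 and IFI44 head the order with medians of 0.46 to 0.40, and ISG20, IFIT2 and IFIT5 end it at 0.03, 0.00 and -0.03.

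IRF7 had the highest median r with the other members, 0.46, followed by PARP9 at 0.43, ISG15 at 0.41, IFI44 at 0.40 and MX2 at 0.39. The members that separated the ages most had low medians, 0.15 for TRIM22 and IRF1, 0.12 for SAMD9 and 0.03 for ISG20. IRF7 was in both sets, among the largest changes with age and at the head of the covariation.

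GD100 BPA replicate 1 shows the covariation in a single animal. Its USP18 level was 11.27 where the other 4 animals of the group had 8.92, 9.04, 9.10 and 8.95. HERC5 was 10.39 where the others had 8.43, 8.08, 8.001 and 8.34, and ISG15 was 13.80 where the others had 12.25, 12.49, 12.25 and 11.85. IFIT1 was 1.40 and OASL 1.06 above their group means, while TRIM22, IRF1 and ISG20 of the same animal lay among the rest of the group or at its low end.

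In the GD165 animals USP18 was 10.81 on BPA replicate 4, where the others of its group had 9.55 and 9.25, and 7.75 on control replicate 1, where the others had 9.61, 9.61 and 9.90. ISG15 was 14.08 on BPA replicate 4 against 12.96 and 12.08. In the GD100 controls replicate 2 was highest for IFI6 (17.24 against 15.42 to 16.43), BST2, IFITM1, IRF7 and OAS1. The median over the members of the log2 difference from their means ran from -0.46 to 0.09 in GD100 controls, -0.44 to -0.01 in GD100 BPA-exposed, 0.02 to 0.51 in GD165 control and 0.07 to 0.60 in GD165 BPA-exposed animals.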

How the data were processed

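RNA of 17 uteri was measured on single-color Agilent arrays on 6 slides. The authors extracted signals with Agilent Feature Extraction 9.5. The deposited values are linear intensities after background subtraction, not scaled between arrays, and the table of the whole series held the same processed signals (711467 of 711467 values identical). Here, log2 intensities of the 2 spots of each probe were averaged without control and outlier spots and scaled to each array's 75th percentile. Between 83.8 and 89.0% of spots were well above background, and the number of arrays limits the precision. limma 3.58.1 (R 4.3.3; lmFit, eBayes) was fitted to all 17 arrays in 4 groups, two-sided, with Benjamini-Hochberg adjustment over 20217 probes and a threshold of 0.01, as in the study's methods, whose error-weighted analysis of variance was not rerun. The probe with the highest mean signal stood for a gene. Every matched member is named. Array values are printed for members past the threshold between control ages and, where a role had none, for its first gene; the 3 smallest p are named for each BPA comparison and the interaction. Values of other members, such as BST2, MX2 and USP18, were added after they were seen. Members and lists were chosen with earlier results of these data known. Scripts were tested on simulated data. Alternatives changed background correction, scaling, filter, weights, blocks, threshold and arrays. No promoter, genome or protein sequence was used here, so no motif search in promoters was made, and probe coordinates are not printed because their build was not settled. The result of 1 gene of the pathway list is not reported here.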

Additional observations from a re-analysis of the deposited data

Results flagged for a closer look

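In 108 combinations of member and group with 4 or 5 arrays, 8 had an array far from the rest, with a gap to its nearest neighbor above the share of the group's range that Dixon's test sets at 95%. Chance flags about 1 in 20 groups. No explanation was tested for any of them. GD100 BPA replicate 1 was high for USP18 (share 0.920), HERC5 (0.819) and IFI44 (0.741, at 10.17 against 8.84 to 9.19). USP18 was low on GD165 control replicate 1 (0.866) and on GD100 control replicate 5 (0.755, at 8.40 against 9.09 to 9.31). IFIT1 was high on GD165 control replicate 6 (0.886, at 13.09 against 11.78 to 11.93). IFIT5 was high on GD100 control replicate 5 (0.738, at 9.51 against 8.52 to 8.78) and on GD100 BPA replicate 5 (0.712, at 9.32 against 8.34 to 8.62).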

How the results depend on the processing

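In controls 9 members passed the threshold with age. The count was 5 in the fit of the compared groups only, 5 with slide as a fixed block and 5 with the replicate block. On leaving out each array it was 6 to 9, the lowest without GD165 control replicate 6 and, separately, without GD100 control replicate 4. Over all probes the calls were 2328, and 1172, 1233, 958, 1512 and 1784 in these settings in turn. In BPA-exposed animals the count, 10, was 3 with slide as a fixed block, 10 with the replicate block and 6 to 11 on leaving out each array, the lowest without GD165 BPA replicate 4. Over all probes they were 1956, and 512, 1444 and 994. The cause was not tested. Every called member was higher at GD165 in all alternatives that were run. The counts for BPA against control and for the interaction were 0 in every alternative, with a smallest adjusted p of 0.251 over them, and the comparison of groups alone does not apply to the interaction. Of 19 pairs of arrays with the same replicate number, 3 had an r of their deviations over 0.1. The highest r of these pairs was 0.16. A pair with different numbers, GD100 BPA replicate 1 and GD165 BPA replicate 5, reached 0.23. Whether the numbers carry a pairing was not tested. Without scaling the median of all probes between the ages in BPA-exposed animals was 0.13 in place of -0.05 and that of BPA at GD165 0.14 in place of -0.02, and the members' medians were 0.81 and 0.23 in place of 0.63 and 0.07. With normexp the members' median between the ages in BPA-exposed animals was 0.34, and without GD165 BPA replicate 4 it was 0.35. Dim probes, DDX58 and GBP2 above all, limit what could be measured.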
